A study of Mus musculus with 9 samples.

Results

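Pmp22, Mbp, Sox10, S100b, Prx and Mag are 6 genes of Schwann cells and their myelin, picked by symbol from the 55536 genes of the deposited tables and followed through 9 libraries of mouse muscle RNA. The study sequenced total RNA of muscle. All mice were male and of the outbred ICR stock, and its 3 groups hold 3 libraries each. Young vehicle mice were 2 months old. Aged vehicle mice were 18 months old, and aged GW8510 mice were 18 months old and received GW8510 intraperitoneally at 2 mg/kg, once a day for 14 days, dissolved in 0.5% sodium carboxymethylcellulose. The series title calls GW8510 a benzenesulfonamide. Both control groups are labelled vehicle-treated. There was no young group given GW8510, so an effect of the compound could be measured at 18 months alone. The labels name neither the muscle nor the part of it taken. They do not state whether each library is 1 animal, and the p-values here speak only of the spread among these samples.

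Schwann cells are the glia of peripheral nerve. In a muscle they wrap the motor and sensory axons of the nerve branches that run between the fibres, and the ones that do not form myelin cover the axon ends at neuromuscular junctions. Sox10 is a transcription factor that Schwann cells need at every stage, and together with Egr2 it switches on the genes of the myelin sheath. Pmp22 and Mbp encode proteins of compact myelin, Prx encodes periaxin, which with Drp2 anchors the outer myelin membrane to the basal lamina, Mag encodes an adhesion protein on the side of the sheath that faces the axon, and S100b encodes a calcium-binding protein used as a marker of Schwann cells.

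The data show lower mean levels of Pmp22, Mbp, S100b, Prx and Mag in both aged groups than in the young group, by -0.53 to -1.40 on the log2 scale, and no effect of GW8510 that could be told from the spread between libraries. None of the 6 genes passed the test in any of 4 comparisons. Libraries of the same aged group differed from each other by up to several-fold in these genes, and the young libraries differed less in most of them.

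Library totals ran from 21718930 to 27437937 counts, and 3 counts, taken as the floor, came to 0.103 to 0.136 CPM (counts scaled to a common library size with edgeR's TMM factors). Aged vehicle library 4 stood apart from the rest. Within its group it had the lowest mean correlation, 0.942, where libraries 1 and 3 had 0.958 and 0.956, and it held the lowest value of the 9 for 24.1% of the 14384 genes tested. Skeletal muscle fibre genes were abundant in every library, at a summed level of 123015 to 194731 TPM over 10 genes. Of 6 genes of oligodendrocytes, the myelinating cells of the brain, which share Mbp and Mag with Schwann cells, Mobp, Opalin and Ermn had 0 counts in every library and Mog had 1 count in a single library. Tmem88b was the 1 gene of this list with enough counts to be tested. The summed level of the 6 genes was 0.11 to 0.34 TPM over the libraries.

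All 6 genes are protein coding. Their promoter sequences are shown because Pmp22, S100b and Prx were the members whose aged vehicle libraries all lay below the young ones, and because Mag held the single motif match found. Each run is the 250 bases before a RefSeq transcription start (build GRCm38.p6), 5′ to 3′ on the strand of the gene, in lower case, with a match to a searched motif in capitals.
Pmp22, chr11:63128732-63128981, plus strand: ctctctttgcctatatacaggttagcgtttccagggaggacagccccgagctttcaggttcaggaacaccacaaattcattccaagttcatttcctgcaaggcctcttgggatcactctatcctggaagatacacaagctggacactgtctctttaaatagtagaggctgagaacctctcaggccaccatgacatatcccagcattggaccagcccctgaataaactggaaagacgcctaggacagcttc
S100b, chr10:76253586-76253835, plus strand: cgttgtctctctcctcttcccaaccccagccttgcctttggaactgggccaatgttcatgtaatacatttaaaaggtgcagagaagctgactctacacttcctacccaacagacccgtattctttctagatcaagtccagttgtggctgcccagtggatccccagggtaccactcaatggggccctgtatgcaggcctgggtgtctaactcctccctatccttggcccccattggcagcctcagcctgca
Prx, chr7:27499074-27499323, plus strand: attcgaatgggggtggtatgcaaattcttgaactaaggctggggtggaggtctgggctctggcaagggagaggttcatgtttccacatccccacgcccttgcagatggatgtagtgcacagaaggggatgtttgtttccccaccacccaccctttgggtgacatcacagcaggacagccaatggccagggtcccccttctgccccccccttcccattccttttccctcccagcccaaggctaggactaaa
Mag, chr7:30914923-30915172, minus strand: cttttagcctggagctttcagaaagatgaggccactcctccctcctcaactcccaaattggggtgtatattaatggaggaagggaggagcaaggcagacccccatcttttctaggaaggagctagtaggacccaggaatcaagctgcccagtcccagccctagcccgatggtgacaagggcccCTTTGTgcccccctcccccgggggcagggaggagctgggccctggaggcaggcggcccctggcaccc
RefSeq windows of 300 bases, 250 before to 50 after a start, were matched for 4 of the 6 genes, with 4 starts for Pmp22, 3 for Mag and 1 each for Prx and S100b. Both strands were searched for the SOX core letters ACAAAG and ACAATG, the EGR letters GCGNGGGNG and the TATA box letters TATAAA, none of which contains another. The capitals in Mag spell ACAAAG on the other strand, 67 to 62 bases before this start, and the same letters fall 126 to 121 bases before a neighbouring Mag start. No other window of the 4 genes held any of these letters. Of 32851 windows of this length, 18.7% held ACAAAG, 12.6% ACAATG, 12.3% GCGNGGGNG and 13.6% TATAAA. A match describes the letters in the window and is not a binding site.

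Between genes, levels were compared per length, as the TPM values that the authors deposited, averaged over the 9 libraries. Pmp22 was the most abundant member, at 21.9 TPM. Mbp followed at 8.94 TPM and Prx at 1.23 TPM. S100b, at 0.650 TPM, Sox10, at 0.533 TPM, and Mag, at 0.316 TPM, were low. In the young group the order was Pmp22 (36.5 ± 8.42, SD, n = 3), Mbp (14.2 ± 3.71), Prx (2.09 ± 0.663), S100b (1.16 ± 0.244), Sox10 (0.617 ± 0.178) and Mag (0.443 ± 0.240), all in TPM. Sox10 and Mag, neighbours in this order, differed by less than their spread, and so did S100b and Sox10 in the aged groups, where S100b stood at 0.397 ± 0.266 and 0.397 ± 0.206 TPM and Sox10 at 0.377 ± 0.153 and 0.607 ± 0.417 TPM.

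Sox10 (ENSMUSG00000033006, chr15:79154908-79165240 on the minus strand of GRCm38, GENCODE M21) is the transcription factor that marks the whole Schwann cell lineage. In the young vehicle libraries 2, 3 and 4 Sox10 stood at 1.54, 1.35 and 0.702 CPM, in the aged vehicle libraries 1, 3 and 4 at 0.946, 1.31 and 0.346 CPM, and in the aged GW8510 libraries 1, 3 and 4 at 0.636, 0.753 and 2.54 CPM. The groups overlapped, with the lowest library in the aged vehicle group and the highest in the aged GW8510 group. These levels rest on 8 to 57 counts a library. Aged vehicle over young vehicle gave a log2 fold change of -0.46 (standard error 0.64, adjusted p = 0.724 by edgeR's quasi-likelihood test with the Benjamini-Hochberg method). Aged GW8510 over young vehicle gave 0.13, and it was -0.80 without aged GW8510 library 4. Sox10 therefore had no stable direction between the treated and young groups.

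Pmp22 (ENSMUSG00000018217, chr11:63128982-63159547, plus strand) encodes a membrane protein of compact myelin whose dose is critical in human hereditary neuropathy. In the young vehicle libraries 2, 3 and 4 Pmp22 stood at 50.1, 60.9 and 40.1 CPM, in the aged vehicle libraries 1, 3 and 4 at 21.0, 35.3 and 6.89 CPM, and in the aged GW8510 libraries 1, 3 and 4 at 14.9, 18.1 and 41.0 CPM. All aged vehicle libraries lay below all young ones, with library 4 of that group far below the others, while aged GW8510 library 4 reached the level of the lowest young library. The group means were 50.4 ± 10.4, 21.1 ± 14.2 and 24.7 ± 14.2 CPM (SD, n = 3). Aged vehicle over young vehicle gave a log2 fold change of -1.26 (standard error 0.53, adjusted p = 0.240 by edgeR's quasi-likelihood test with the Benjamini-Hochberg method), which did not pass, and it was -0.84 without aged vehicle library 4. The values are of bulk RNA, which does not show which cells, Schwann cells or others, the Pmp22 RNA came from. Fewer cells and less RNA per cell cannot be told apart either, and the same holds for every level given here.

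Mbp (ENSMUSG00000041607) encodes myelin basic protein, which holds the inner faces of the compact myelin membrane together. In the young vehicle libraries 2, 3 and 4 Mbp stood at 25.0, 20.6 and 17.9 CPM, in the aged vehicle libraries 1, 3 and 4 at 12.3, 18.8 and 8.75 CPM, and in the aged GW8510 libraries 1, 3 and 4 at 4.0, 9.39 and 19.2 CPM. The young libraries were high, yet the highest library of each aged group lay among them, and the lowest value of all was in aged GW8510 library 1. Aged vehicle over young vehicle gave -0.67 on the log2 scale (standard error 0.47, adjusted p = 0.449 by edgeR's quasi-likelihood test with the Benjamini-Hochberg method). Mbp overlaps the processed pseudogene Rpl21-ps8 on the opposite strand, which held at most 2.25 counts in any library.

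Prx (ENSMUSG00000053198, chr7:27499324-27520214, plus strand) encodes periaxin of the outer myelin membrane. In the young vehicle libraries 2, 3 and 4 Prx stood at 9.40, 9.13 and 5.58 CPM, in the aged vehicle libraries 1, 3 and 4 at 3.56, 5.19 and 1.04 CPM, and in the aged GW8510 libraries 1, 3 and 4 at 1.32, 2.04 and 7.26 CPM. The aged vehicle libraries were all below the young ones, and aged GW8510 libraries 1 and 3 were low while library 4 of that group lay among the young. The ordering by library was close to that of Pmp22. Aged vehicle over young vehicle gave a log2 fold change of -1.30 (standard error 0.66, adjusted p = 0.309 by edgeR's quasi-likelihood test with the Benjamini-Hochberg method), and it was -0.88 without aged vehicle library 4. Prx overlaps the antisense gene Gm15541, which held at most 13.8 counts.

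Mag (ENSMUSG00000036634, chr7:30899176-30914873, minus strand) encodes the myelin-associated glycoprotein of the sheath's axonal side. In the young vehicle libraries 2, 3 and 4 Mag stood at 0.821, 1.10 and 0.351 CPM, in the aged vehicle libraries 1, 3 and 4 at 0.546, 0.818 and 0.173 CPM, and in the aged GW8510 libraries 1, 3 and 4 at 0.363, 0.487 and 0.712 CPM. Young and aged libraries overlapped, and young vehicle library 4 lay below most aged ones. With 4 to 26 counts a library the depth allows little precision. Aged vehicle over young vehicle gave -0.55 on the log2 scale (standard error 0.61, adjusted p = 0.646 by edgeR's quasi-likelihood test with the Benjamini-Hochberg method).

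S100b (ENSMUSG00000033208, chr10:76253853-76261159, plus strand) encodes a calcium-binding protein abundant in Schwann cells and also made by other cells, fat cells among them. In the young vehicle libraries 2, 3 and 4 S100b stood at 1.06, 1.65 and 1.13 CPM, in the aged vehicle libraries 1, 3 and 4 at 0.764, 0.532 and 0.130 CPM, and in the aged GW8510 libraries 1, 3 and 4 at 0.318, 0.443 and 0.757 CPM. All 6 aged libraries lay below all 3 young ones, the one member for which this was so. The lowest, aged vehicle library 4, held 3 counts, which is the floor, and the other libraries held 7 to 39 counts. Aged vehicle over young vehicle gave a log2 fold change of -1.40 (standard error 0.58, adjusted p = 0.230 by edgeR's quasi-likelihood test with the Benjamini-Hochberg method), and aged GW8510 over young vehicle gave -1.33 (adjusted p = 0.286). S100b overlaps Dip2a, a protein coding gene on the opposite strand with up to 246 counts in a library, and whether the counting used strand is not given in the sources used here.

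**Figure D1:**
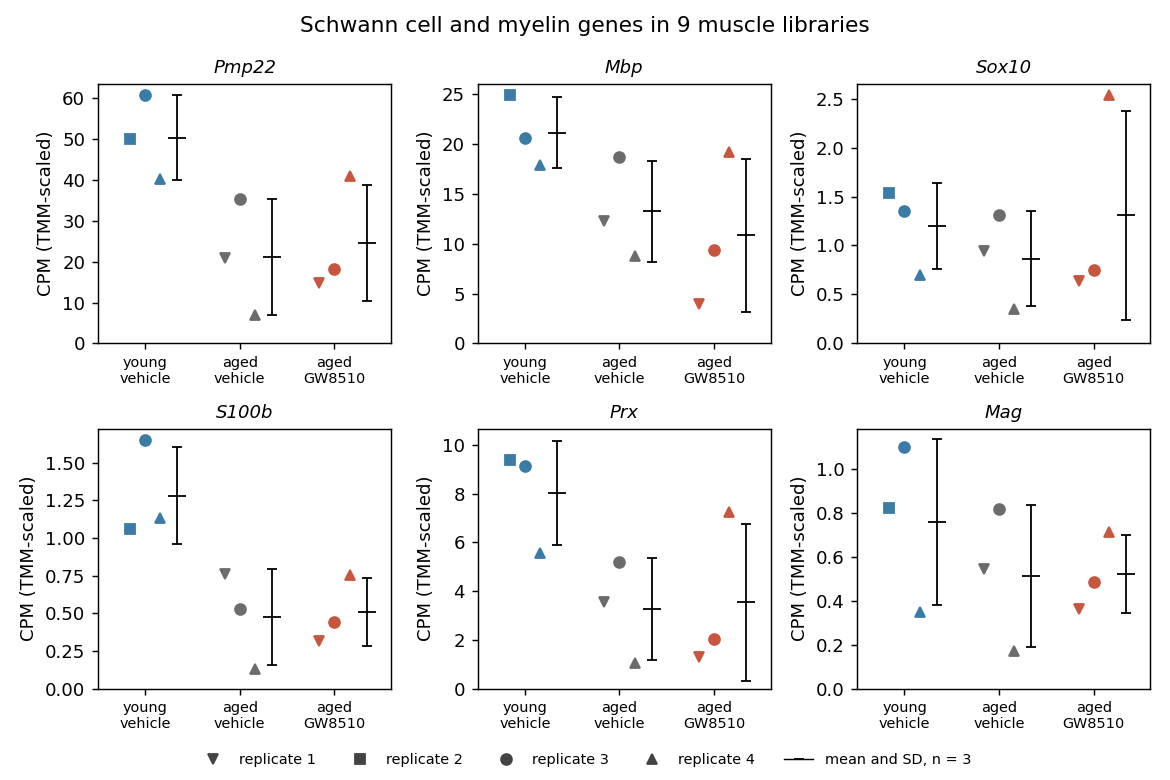
Level of each of the 6 genes in CPM (vertical axis, from 0, with its own scale per gene) in the 3 groups, 1 point per library shaped by replicate number, with the mean and SD (n = 3) beside the points. Aged vehicle library 4 is the lowest of the 9 in 5 of the 6 genes, and aged GW8510 library 4 lies above the other aged GW8510 libraries in all 6.

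The first comparison asked how these genes differ between 18-month and 2-month muscle under vehicle. Of the 6 members 0 passed the adjusted threshold of 0.05, where 1.22% of the 14384 genes tested did. The libraries of 3 members, Pmp22, S100b and Prx, did not overlap and were lower in the aged group, where 13.5% of all genes did so. At an unadjusted p under 0.05, 2 members were lower, Pmp22 and S100b, as were 10.1% of all genes, and DESeq2 and limma-voom called 0 members. All 6 log2 fold changes were below 0, as were 48.9% of those of all genes, and the members' median was -0.96 against 0.01 for all genes. Without aged vehicle library 4 the members' median was -0.65 and again 0 of 6 passed.

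The second comparison asked what GW8510 did at 18 months. Here 0 of the 6 members and 0% of the genes tested passed by edgeR's quasi-likelihood test. Over all genes 4.5% had an unadjusted p under 0.05, and DESeq2 called 8 genes, none of them a member. Aged GW8510 and aged vehicle libraries of the members overlapped in all 6 genes, where 3.33% of all genes were lower and 3.89% higher without overlap. The log2 fold changes, with their 95% intervals, were 0.23 for Pmp22 (-0.95 to 1.40), -0.29 for Mbp (-1.34 to 0.76) and 0.11 for Prx (-1.36 to 1.58). For the low genes they were 0.59 for Sox10 (-0.84 to 2.02), 0.08 for S100b (-1.27 to 1.42) and 0.02 for Mag (-1.38 to 1.42). Each interval holds a change of 2-fold in at least 1 direction, and the missing calls do not show that GW8510 had no effect. The sign rested on single libraries. With aged vehicle library 4 left out the values for Pmp22, S100b, Prx and Mag were -0.19, -0.37, -0.31 and -0.39, and with aged GW8510 library 4 left out those for Pmp22, Sox10, S100b, Prx and Mag were -0.36, -0.33, -0.34, -0.97 and -0.28.

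The third comparison set treated aged muscle against young muscle and shares the young libraries with the first. Of the 6 members 0 passed, where 0.751% of the genes tested did. S100b was the 1 member whose libraries did not overlap, lower in the aged GW8510 group as 12.8% of all genes were, and the 1 member with an unadjusted p under 0.05, as 8.17% of all genes were in that direction. DESeq2 called 0 members. The values stood beside those of the first comparison as -1.03 and -1.26 for Pmp22, -0.96 and -0.67 for Mbp, -1.18 and -1.30 for Prx, and -0.53 and -0.55 for Mag, with aged GW8510 over young vehicle first. In the authors' deposited table for this comparison Pmp22 was the 1 member marked as significant, with a log2 ratio of -1.03 and an adjusted p of 0.0266. The edgeR quasi-likelihood fit gave Pmp22 the same log2 fold change with a Benjamini-Hochberg adjusted p of 0.361, and 0.155 with only these 6 libraries in the fit. The authors' deposited tables marked 0 members in the other 2 comparisons.

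Both aged groups were then set against the young group, taking the mean of the aged group means, a contrast that includes the treated mice. Of the 6 members 0 passed, where 3.66% of the genes tested did. S100b had the smallest adjusted p of the members, at a log2 fold change of -1.36 (standard error 0.48, adjusted p = 0.142 by edgeR's quasi-likelihood test with the Benjamini-Hochberg method), and its libraries did not overlap, as was so of 7.9% of all genes in the lower direction. It passed in 1 alternative, limma on log2(TPM + 1), where its log2 difference was -0.63 and its adjusted p 0.0480, against a median of -0.09 over all genes. At an unadjusted p under 0.05, 3 members were lower, Pmp22, S100b and Prx, as were 11.4% of all genes, and DESeq2 called 0. Prx gave -1.24 (standard error 0.54), Pmp22 -1.14 (0.44), Mbp -0.82 (0.39), Mag -0.54 (0.52) and Sox10 -0.17 (0.54). The value of Sox10 turned to 0.05 when young vehicle library 2 was dropped and to 0.01 when aged vehicle library 4 was. Over the members the median was -0.98, against 0.01 over all genes.

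**Figure D2:**
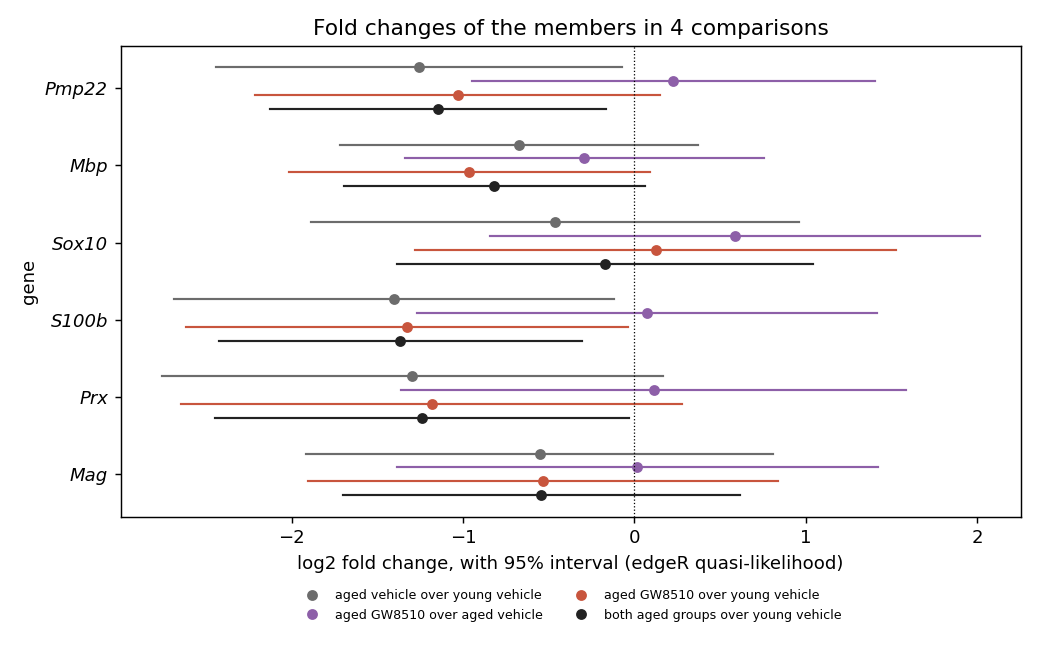
Log2 fold changes (horizontal axis) with 95% intervals from the edgeR quasi-likelihood fit for the 6 members (vertical axis), 1 color per comparison. The values for aged GW8510 over aged vehicle lie around 0 for every gene, those against the young group lie below 0 for all but Sox10 in aged GW8510 over young vehicle, and the intervals are wide.

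The members followed each other from library to library to differing degrees. Centred on each gene's mean over 9 libraries (log2 CPM with a prior count of 2), the mean of the 6 members was 0.82, 0.95 and 0.22 in the young vehicle libraries, -0.06, 0.34 and -1.45 in the aged vehicle libraries and -0.99, -0.48 and 0.65 in the aged GW8510 libraries. Aged vehicle library 3 and aged GW8510 library 4 thus lay above young vehicle library 4. The closest pair of members was Pmp22 and Prx, whose centred values differed by a root mean square of 0.304, followed by Pmp22 and S100b, at 0.337, and Sox10 and Mag, at 0.370. Sox10 and S100b were the farthest pair, at 0.670, not far below the spread of each around its own mean, 0.727 for Sox10 and 0.870 for S100b. These figures describe 9 libraries that differed in depth and in their levels of cell type genes, and carry no test.

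Among 11391 or 11392 genes with a mean of at least 1 CPM, the 2 genes whose centred values were nearest to each member over the 9 libraries were found. For Prx these were Chrdl1 (root mean square difference 0.131) and Cldn19 (0.213), which encodes a claudin of Schwann cell tight junctions. For Pmp22 they were Bgn (0.212), which encodes the matrix proteoglycan biglycan, and Crispld2 (0.218). For Mbp they were Zim1 (0.227) and Lama3 (0.250), a laminin chain gene. Sox10 was nearest to Phgdh (0.185), of serine synthesis, and Sdc1 (0.245), a proteoglycan gene. S100b was nearest to Fam114a1 (0.184) and Ptgr1 (0.249), and Mag to Il33 (0.180), a cytokine gene, and Clip3 (0.210). The members' own spread around their means was 0.644 (Mag) to 1.09 (Prx) in the same unit.

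Some of the myelin genes, Pmp22 and Prx among them, stood in a lower proportion to Sox10 in the aged libraries. The ratio was the difference of 2 log2 CPM values with a prior count of 2, taken within each library. It therefore differs from the ratio of the CPM values printed above where counts are low. This description was chosen after the CPM values had been seen, so it has no test. The log2 ratio of Pmp22 to Sox10 was 4.95, 5.41 and 5.68 in the young vehicle libraries, 4.36, 4.67 and 4.02 in the aged vehicle libraries and 4.38, 4.45 and 3.97 in the aged GW8510 libraries. All 6 aged values lay below all 3 young ones, and so they did for Prx, at 2.55, 2.68 and 2.85, then 1.83, 1.92 and 1.39, then 0.96, 1.34 and 1.49. Over all genes with a ratio to Sox10, 2.22% were lower without overlap in this way. The means for Pmp22 were 5.35 ± 0.37, 4.35 ± 0.32 and 4.27 ± 0.26 (SD, n = 3), and those for Prx were 2.69 ± 0.15, 1.71 ± 0.29 and 1.26 ± 0.27.

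Drp2, which is not a member, also had all aged ratios to Sox10 below all young ones, by -1.53 between the aged and young means. The Mag ratios overlapped between the ages, with means of -0.66 ± 0.33, -0.70 ± 0.06 and -0.99 ± 0.64. So did those of Cnp, an enzyme gene of non-compact myelin, with means of 3.18 ± 0.57, 3.23 ± 0.39 and 2.95 ± 0.89, and for both genes aged GW8510 library 4 was the lowest of the 9. For Mbp the aged vehicle ratios overlapped the young ones, while the aged GW8510 ratios of 2.51, 3.50 and 2.88 lay below the aged vehicle ratios of 3.59, 3.76 and 4.37 without overlap, as was so of 0.793% of all genes. The Drp2 ratios were also lower in the aged GW8510 libraries, at 0.33, -0.16 and 0.33, than in the aged vehicle libraries, at 0.68, 1.30 and 0.77, without overlap. The ratio of S100b to Sox10 differed by -1.07 between aged and young, with overlap. For the members the lack of overlap depended on the reference gene. With Erbb3, the neuregulin receptor gene of Schwann cells, as the reference, the differences were -1.24 for Pmp22 and -1.41 for Prx and the libraries overlapped, while Drp2, at -1.73, was lower in both aged groups without overlap, as were 3.5% of all genes. With this reference the Mbp and Drp2 ratios of the 2 aged groups overlapped.

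**Figure D3:**
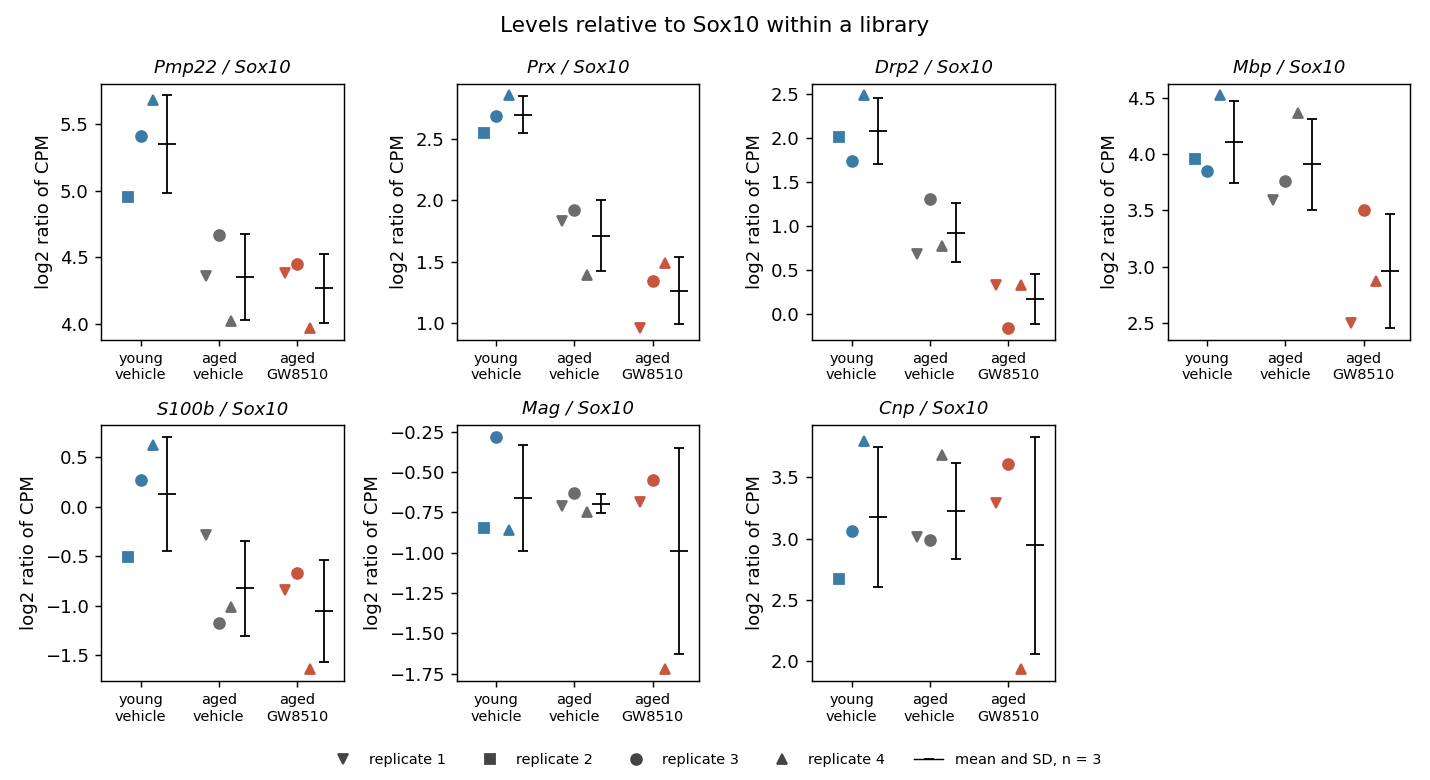
Log2 ratio of CPM (prior count of 2) of 7 genes to Sox10 within each library (vertical axis, with its own scale per gene) in the 3 groups, 1 point per library shaped by replicate number, with the mean and SD (n = 3). For Pmp22, Prx and Drp2 every aged point lies below every young point, while Mag and Cnp overlap.

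Of 16 other genes of myelin proteins, 14 were tested, and 0 passed in any of the 4 comparisons. In both aged groups over young vehicle 12 of the 14 log2 fold changes were below 0 with a median of -0.40, against 0.01 over all genes. Drp2, the partner of periaxin, stood at 6.43, 4.69 and 4.29 CPM in the young vehicle libraries, 1.56, 3.35 and 0.650 CPM in the aged vehicle libraries and 0.817, 0.664 and 3.21 CPM in the aged GW8510 libraries. The ages did not overlap, as was so of 7.9% of all genes in the lower direction. Drp2 had the smallest adjusted p of this list, 0.129 by edgeR's quasi-likelihood test with Benjamini-Hochberg adjustment, at a log2 fold change of -1.59. It passed without aged GW8510 library 4 and did not pass without aged vehicle library 4. In the authors' deposited table Drp2 was marked in aged GW8510 over young vehicle, with a log2 ratio of -1.71 and an adjusted p of 0.0149. Cnp gave -0.35 in both aged groups over young vehicle. The most abundant genes of the list per length were Mpp6 (35.2 TPM, log2 fold change 0.27), Cd9 (20.8 TPM, -0.44) and Ndrg1 (11.2 TPM, 0.29), which are also expressed by many other cells.

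**Figure D4:**
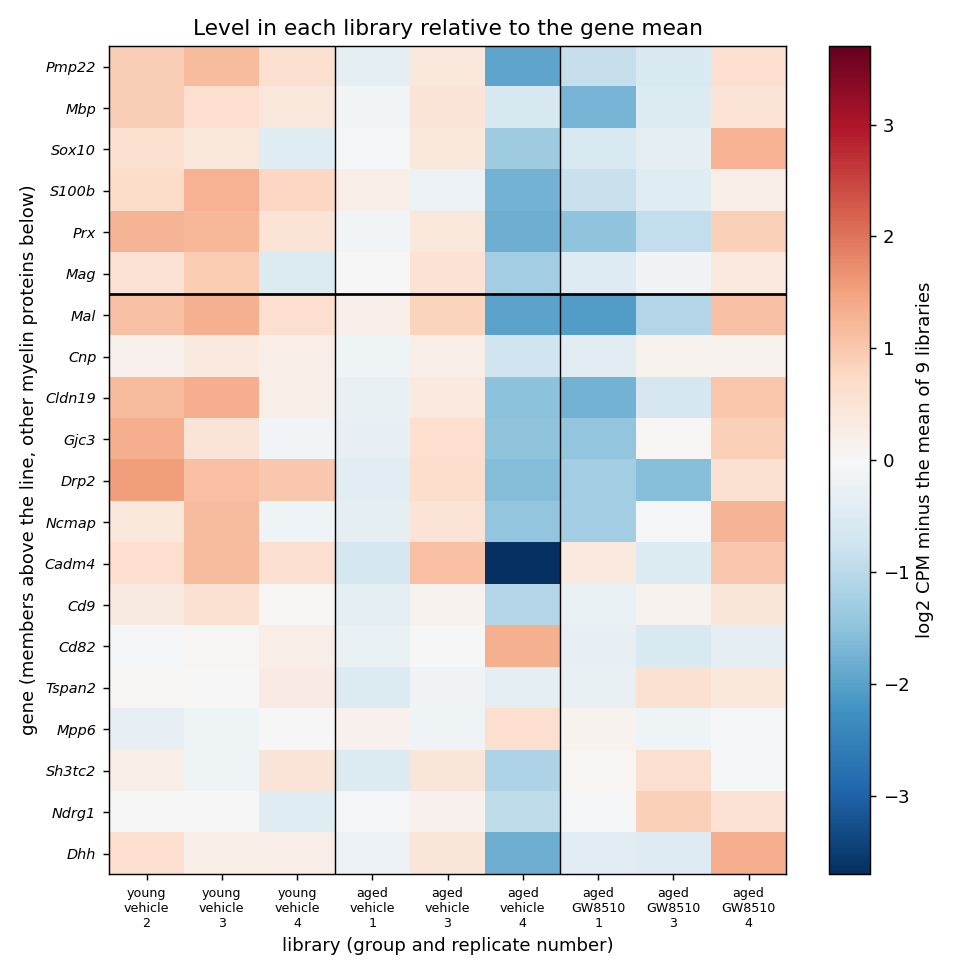
Centred log2 CPM (color, log2 CPM minus the gene's mean over 9 libraries) of the 6 members above the line and the 14 tested genes of other myelin proteins below it, in 9 libraries in columns. Aged vehicle library 4 is the lowest library for 5 of the 6 members and for 9 of the 14 other genes.

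Myelin membrane is rich in cholesterol and galactolipids, and 17 genes of their synthesis and its control were followed. Of the 16 tested, 3 fell, where 2.33% of all genes tested did, in both aged groups against young (adjusted p under 0.05 by edgeR's quasi-likelihood test with the Benjamini-Hochberg method), with a median of -0.56 over the list. They were Sqle, squalene epoxidase (-1.51, adjusted p = 0.0488), Idi1, an isomerase of the same pathway (-0.62, 0.0480), and Srebf2, the factor that drives it (-0.82, 0.0450). All 3 belong to cholesterol synthesis, which muscle fibres and most other cells also run. Of the 16 genes 13 had values below 0, as did 48.6% of all genes. Fdft1, also of cholesterol synthesis, went the other way and did not pass. Its centred log2 CPM was -0.47 to -0.29 in the young and -0.14 to 0.68 in the aged libraries. Over all genes 6.61% were higher without overlap in this way. Ugt8a, the galactolipid enzyme closer to myelin itself, had a value of -2.04 and did not pass (adjusted p = 0.178 by edgeR's quasi-likelihood test with the Benjamini-Hochberg method). Single libraries set the count of 3 that fell. It dropped to 0 when any young library, aged vehicle library 1, or aged GW8510 library 1 or 3 was left out. It was 1 without aged vehicle library 3, 2 without aged vehicle library 4, and 6, Ugt8a among them, when aged GW8510 library 4 was. None of the 16 genes passed in the comparisons between single groups.

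Few regulators of Schwann cells passed. Of 18 transcription factor genes 14 were tested and 0 passed in both aged groups over young vehicle, with a median of -0.27. Without aged vehicle library 4, 2 of the 14 fell, Jun and Nab2, and Nab2 alone did when library 3 of that group was left out. Egr2, the partner of Sox10 in myelin formation, stood at 1.5, 0.804 and 0.702, then 0.364, 0.940 and 0.303, then 0.136, 0.443 and 0.846 CPM in young vehicle, aged vehicle and aged GW8510 libraries, overlapping between groups. Of 20 genes of signals and receptors, 17 were tested and 1 fell in both aged groups over young vehicle, where 2.33% of all genes did. This was Bace1, which encodes the protease that cuts neuregulin 1, at -0.80 (adjusted p = 0.0196 by edgeR's quasi-likelihood test with the Benjamini-Hochberg method). Bace1 also fell in aged GW8510 over young vehicle, by 0.97 on the log2 scale (adjusted p = 0.0307 by the same test), as did 0.417% of all genes. Its mean of 7.64 TPM exceeds that of Erbb3 (0.733 TPM), and it is expressed outside nerve as well. In both aged groups over young vehicle Bace1 passed without any 1 of the aged libraries and did not pass when any young library was left out. Erbb3 gave -0.16 and Ngfr, a receptor gene of immature and non-myelinating Schwann cells, 0.72, and neither passed. Of 13 genes of unmyelinated and immature Schwann cells 9 were tested and 0 passed, with a median of -0.16. Of 11 genes of the node and of contact with the axon 9 were tested and 0 passed, with a median of -0.35.

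The cell bodies of motor neurons lie outside muscle, and few of their transcripts were found. Chat and Slc18a3 had 0 counts in all 9 libraries, Nefl had 1 count in 1 library, and Nefm at most 3. Of 12 axon and motor neuron genes 4 were tested and 1 rose, where 1.33% of all genes did. This was Uchl1, a deubiquitinase gene of neurons, at 0.239, 0.296 and 0.312, then 0.80, 1.80 and 1.13, then 0.953, 1.02 and 1.83 CPM in the 3 groups. The young levels were low, against a floor of 0.103 to 0.127 CPM in those libraries. Whether neurons or other cells of the muscle gave the Uchl1 RNA was not tested. For Uchl1 all aged libraries were above all young ones, as was so of 6.61% of all genes. The log2 fold change in both aged groups over young vehicle was 2.13 (adjusted p = 0.0283 by edgeR's quasi-likelihood test with the Benjamini-Hochberg method). Uchl1 did not pass when any young library or aged GW8510 library 3 was left out, and Sncg, a synuclein gene of peripheral neurons and fat cells, passed beside it without aged vehicle library 4.

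Fibroblast genes, which nerve sheaths and muscle connective tissue both hold, went the same way as the members across libraries. In both aged groups over young vehicle 10 of 10 tested fibroblast genes had values below 0, with a median of -1.44, and 4 fell (adjusted p under 0.05 by edgeR's quasi-likelihood test with the Benjamini-Hochberg method), Col1a1 (-4.16), Col3a1 (-3.60), Col1a2 (-3.45) and Cd34 (-0.85). Over all genes tested in this contrast 48.6% had values below 0 and 2.33% fell, the shares against which the lists below are read as well. The summed level of the 10 genes was 446 to 970 TPM in the young vehicle libraries, 65.4 to 264 TPM in the aged vehicle libraries and 136 to 328 TPM in the aged GW8510 libraries, and none of the 10 was at 0. That of the 6 members was 41.4 to 64.4, 10.1 to 34.2 and 11.5 to 41.8 TPM. Aged vehicle library 4 was the lowest library for 9 of the 10 fibroblast genes. Of these calls 0 were left when young vehicle library 3 was dropped, 1 when young vehicle library 2 or 4 or aged GW8510 library 1 or 3 was, and 2 when aged vehicle library 1 was. The part of fibroblast content in the members' values was not tested. Perineurium genes, of the sheath around nerve bundles, were highest in aged GW8510 library 4 (mean centred log2 level 1.32), the library where the members were highest among the treated, and adipocyte genes were too (2.45). Of the 5 perineurium genes 3 were tested and 0 passed, and their summed level was 3.29 to 9.83, 3.41 to 5.37 and 3.46 to 9.87 TPM in the 3 groups. The 9 tested adipocyte genes, with 0 that passed, summed with the untested one to 297 to 417, 286 to 334 and 367 to 577 TPM. Their mean centred log2 level gave another order, at -0.89, -1.46 and 2.45 in aged GW8510 libraries 1, 3 and 4. By that measure library 3 was the lowest of all libraries, though its sum was 520 TPM. The part of these cells in the members' values was not tested either. Of other cell types, 1 of 10 endothelial genes fell (Cldn5, and 0 in 8 of the 9 fits that left out 1 library), and 8 of the 10 had values below 0, with a median of -0.33. Of 9 tested macrophage genes 0 passed, and 8 had values below 0 with a median of -0.64. At an unadjusted p under 0.05, 4 were lower, as were 11.4% of all genes. The summed level of the macrophage list was 39.6 to 113, 27.8 to 52.4 and 33.3 to 53.5 TPM in the 3 groups. Of 10 smooth muscle and pericyte genes 0 passed and 8 had values below 0, with a median of -0.16, and 0 of 1 tested melanocyte genes passed. Of the muscle fibre genes 0 of 10 passed and 8 had values below 0, with a median of -0.18, and single genes went either way, Mb at 1.10 and Pvalb at -0.67. Their summed level was 167650 to 194731 TPM in the young vehicle libraries, 128273 to 162268 TPM in the aged vehicle libraries and 123015 to 149962 TPM in the aged GW8510 libraries, lower in all 6 aged libraries than in the 3 young ones. This separation was of summed TPM alone. The mean centred log2 CPM of the list overlapped between the ages, at -0.07 in young vehicle library 2 and 0.07 in aged vehicle library 3. The part of these lists in the members' values was not tested.

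**Figure D5:**
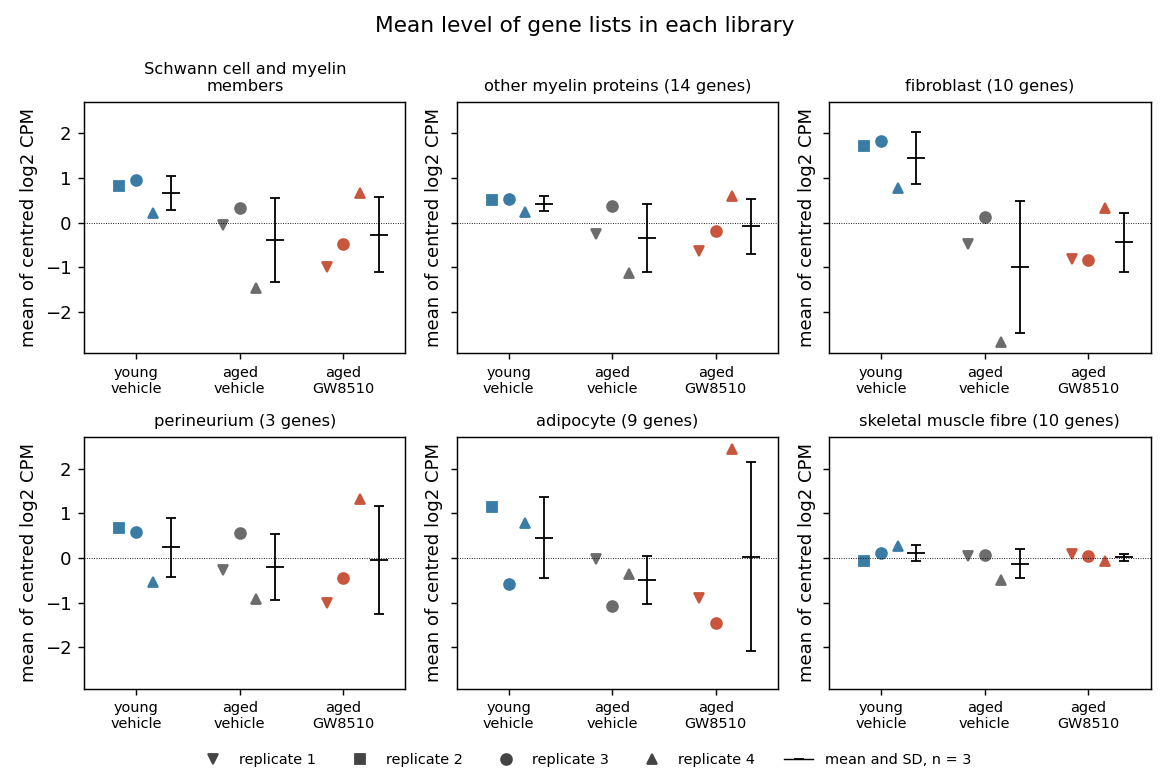
Mean centred log2 CPM (vertical axis) of the members and 5 other gene lists in each library, grouped on the horizontal axis, with points shaped by replicate number and the mean and SD (n = 3). Members, other myelin proteins and fibroblast genes are lowest in aged vehicle library 4, and perineurium and adipocyte genes are highest in aged GW8510 library 4.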

How the data were processed

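RNA of mouse muscle was sequenced in 9 libraries of 3 groups. The authors deposited expected counts for each gene and library in 3 tables, 1 per pair of groups. These carry no normalization per the file headers, and 91.4% of them are whole. TPM values stand beside them, which the authors deposited per library. Each table also has the authors' log2 ratio between its 2 groups, with the p-value the authors deposited, raw and adjusted. In the submitters' processing notes GRCm38 is the assembly, and RSEM, HISAT2, StringTie, CASAVA, edgeR and DESeq2 are listed as tools. Versions, annotation and use of strand are not given in the sources used here. Where 2 tables hold the same library its counts did not differ. GENCODE M21, which holds all 55536 IDs, gave the coordinates, and RefSeq the promoters.

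Counts were rounded to whole numbers and filtered with edgeR's filterByExpr, which kept 14384 genes and all 6 members. Groups were compared by the two-sided quasi-likelihood F test of edgeR (version 4.0.16, under R 4.3.3) with TMM factors. A single fit held the 9 libraries with a mean for each group. Benjamini-Hochberg adjustment ran over all genes tested, with a threshold of 0.05. Library totals were 21718930 to 27437937, and on the TMM scale the floor of 3 counts came to 0.103 to 0.136 CPM, which covers counting error only. A standard error is the size of the log2 fold change divided by the root of its F value, and intervals cover 95%. Alternatives used DESeq2 1.42.0 and limma 3.58.1, other scaling, filters and samples, the deposited TPM on the log2(TPM + 0.1) and log2(TPM + 1) scales, and fits without 1 library. The scripts were tested on simulated data.

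The members and the lists of related genes were chosen with earlier results of these data known. From each list the text names up to 4 genes past the threshold, or up to 3 of the highest mean TPM, besides Egr2, Erbb3, Ngfr, Nefl, Nefm and Chat, and 2 genes nearest to each member. Drp2, Cnp, Ugt8a, Fdft1, Jun, Nab2, Sncg, Mb and Pvalb were named after their values were seen. A few genes of the lists and of the naming rule are not reported here and are not in the counts.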

Additional observations from a re-analysis of the deposited data

How the results depend on the processing

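Of the members, 0 passed in every alternative and comparison with 1 exception, S100b in both aged groups over young vehicle by limma on log2(TPM + 1), which makes that count 1. Counts over all genes moved more. For aged vehicle over young vehicle, 175 genes were called, and 946 by DESeq2, 699 without a filter, 50 with only the compared libraries, 5 with the replicate number as a block, and 19 to 148 without 1 library. For aged GW8510 over aged vehicle, 0 genes were called, and 8 by DESeq2, 5 without a filter, 0 with the replicate block and 0 to 2 without 1 library. For aged GW8510 over young vehicle, 108 genes were called, and 820 by DESeq2, 553 without a filter, 469 with only the compared libraries, 176 and 237 on log2(TPM + 0.1) and log2(TPM + 1), 8 with the replicate block, and 25 to 594 without 1 library, the last without aged vehicle library 4. For both aged groups over young vehicle, 526 genes were called, and 1328 by DESeq2, 1012 without a filter, 19 with the replicate block, and 73 to 775 without 1 library. Fits with only the compared libraries were not run for this contrast. The causes were not tested.

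The main fit did not pair samples by replicate number. Deviations of same-numbered aged vehicle and aged GW8510 libraries correlated at -0.08, 0.02 and -0.21, those of young and aged vehicle libraries at 0.14 and 0.07, and those of young and aged GW8510 libraries at 0.00 and -0.20. The labels do not say what a number stands for, and these correlations cannot settle whether same-numbered libraries shared a batch. With the block, 0 members passed in any comparison.

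Signs turned in aged GW8510 over aged vehicle, where values were near 0. Prx was -0.0192 by limma-voom, -8.82e-05 with the replicate block, -0.14 on log2(TPM + 0.1) and -0.029 on log2(TPM + 1). Over the 9 fits without 1 library the values ran from -0.36 to 0.82 for Pmp22, -0.99 to 0.10 for Mbp, -0.33 to 0.998 for Sox10, -0.37 to 0.60 for S100b, -0.97 to 0.61 for Prx and -0.39 to 0.51 for Mag. The libraries whose loss turned a sign were aged vehicle 4 (Pmp22, S100b, Prx and Mag), aged GW8510 4 (those and Sox10), and aged vehicle 3 and aged GW8510 1 (Mbp). For Sox10, aged GW8510 over young vehicle was -0.0878 by limma-voom, -0.17 on log2(TPM + 0.1), -0.0349 on log2(TPM + 1) and -0.80 to 0.45 over the fits that each lack a library, below 0 when young vehicle 4 or aged GW8510 4 was dropped. In both aged groups over young vehicle Sox10 was 0.23 with the replicate block and -0.63 to 0.0459 over the fits that each lack a library. The log2 ratio of Mag to Sox10 was not refitted, and 1 library at a time was left out of its group means. The difference between aged and young in this ratio then ran from -0.29 to 0.0088, above 0 when young vehicle 3 or aged GW8510 4 was dropped. The reference gene and this ratio were chosen after the data were seen. On the TPM scale the median over all genes was -0.20 on log2(TPM + 0.1) and -0.14 on log2(TPM + 1) in aged GW8510 over young vehicle, and TPM values are read against it. Sox10, S100b and Mag held 3 to 57 counts a library, which limits their precision.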
